A study of Mus musculus with 6 samples.

Results

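Read density of acetylated lysine 5 of histone H4 (H4K5ac) was measured over 7 metabotropic glutamate receptor genes in mouse hippocampus: Grm2, Grm3, Grm4, Grm5, Grm6, Grm7 and Grm8. The genes were taken by name from the GENCODE annotation of build NCBIM37 (mm9), and made up 7 of the 37273 annotated genes in which reads were counted. C57/BL6 mice of 6 months had either received a foot-shock in a training context on consecutive days (fear-conditioned, FC) or been placed in that context without the shock (CON), and the hippocampi of both groups were taken 1 hour after they were put back into the context on the third day. From each group there was 1 library of chromatin precipitated with an antibody to H4K5ac (H4K5ac-ChIP), 1 of chromatin precipitated with non-specific immunoglobulin (IgG-IP) and 1 of total chromatin DNA (input), so 6 libraries in all. The labels do not say how many animals each library held. With 1 library per group and antibody the conditions have no replicate check, so no test of the condition was made. Each pair of values in parentheses after a ratio gives the bounds of an exact 95% interval of read counting. These intervals compare libraries, not conditions, and cover counting error only, because reads without molecular identifiers are not independent molecules.

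Metabotropic glutamate receptors are G protein-coupled receptors that answer synaptic glutamate slowly, through second messengers, in contrast to the ion channels of the AMPA, kainate and NMDA families. Grm5 encodes a group I receptor, which couples to Gq and releases calcium from internal stores at the edge of the postsynaptic density. Grm2 and Grm3 encode group II receptors and Grm4, Grm6, Grm7 and Grm8 group III receptors, which couple to Gi/o, lower cyclic AMP and, on presynaptic terminals, reduce transmitter release. In the hippocampus Grm5 is known for its part in synaptic plasticity, Grm3 is expressed in glia as well as neurons, and Grm7 sits in the active zone. Grm6 is known from the retina, where it serves the light response of ON bipolar cells. H4K5ac is a mark of open, transcribed chromatin that is found at promoters and along gene bodies.

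The H4K5ac-ChIP libraries held 31605738 (FC) and 35962226 (CON) reads, those of IgG-IP 14549689 and 16491741, and those of input 45673239 and 35493806. The IgG-IP libraries were the shallowest, and they set the width of most intervals. The FC input gave more reads than the CON input in GC-rich sequence and fewer in AT-rich sequence, which bears on every comparison with input and is given per gene below. Neurons, astrocytes, oligodendrocytes, microglia and vessel cells share the tissue, and in such a mixture fewer cells of a type and less acetylation per cell cannot be told apart. Of the marker lists, the gene bodies of 8 hippocampal neuron markers had a median log2 enrichment, that is read density of H4K5ac-ChIP divided by that of IgG-IP, which stood at 0.94 (FC) and 0.85 (CON), and those of 6 genes of other organs 0.04 and -0.23. Medians for astrocyte markers were 0.52 and 0.85, for oligodendrocyte markers 0.95 and 0.71, and for microglia and vessel markers 0.92 and 0.77, and across all genes 0.70 and 0.60. At 0 of the 32 genes of these 5 lists did the gene-body density of H4K5ac-ChIP differ by 1.5 times or more between FC and CON, where 4.53% of all genes were that much higher in FC and 1.96% in CON.

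The 7 genes fell into a long, AT-rich set and a short, GC-rich set. Grm3 (ENSMUSG00000003974.4, chr5:9485236-9725352, minus strand), Grm5 (ENSMUSG00000049583.7, chr7:94750952-95283417, plus strand), Grm7 (ENSMUSG00000056755.6, chr6:110595575-111517224, plus strand) and Grm8 (ENSMUSG00000024211.9, chr6:27225121-28085178, minus strand) spanned 240 to 922 kb, with 37.1% to 38.6% GC. Exons covered 0.639% to 1.52% of these 4 genes, so that their gene-body reads were almost all intronic. Grm2 (ENSMUSG00000023192.7, chr9:106546868-106558440, minus strand), Grm4 (ENSMUSG00000063239.8, chr17:27559332-27650286, minus strand) and Grm6 (ENSMUSG00000000617.8, chr11:50664187-50679710, plus strand) spanned 11.6, 91.0 and 15.5 kb, with 50.2% to 54.5% GC. Other annotated genes covered 8.06% of Grm6 (Gm12660), and at most 0.0508% of Grm5 (a U7 small RNA), Grm7 (an antisense transcript and a pseudogene) or Grm8 (SNORA17 and Mir592), and none of Grm2, Grm3 or Grm4.

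The sequence just upstream of the first annotated transcription start site (TSS) differed as widely among the members. The 250 bases upstream of the first TSS held 30 CpG dinucleotides in Grm4, 24 in Grm8, 16 in Grm2, 10 in Grm7, 8 in Grm3, 4 in Grm6 and 0 in Grm5, against a median of 4 over all genes and 8 over protein-coding genes. The windows of Grm2, Grm5 and Grm7 are shown because H4K5ac-ChIP relative to IgG-IP in the 5 kb upstream was highest in both groups for Grm2 and Grm7 and lowest for Grm5, each 5′ to 3′ on the strand of the gene with CpG in capitals, read from NCBIM37 at chr9:106558441-106558690, chr7:94750702-94750951 and chr6:110595325-110595574.
Grm2: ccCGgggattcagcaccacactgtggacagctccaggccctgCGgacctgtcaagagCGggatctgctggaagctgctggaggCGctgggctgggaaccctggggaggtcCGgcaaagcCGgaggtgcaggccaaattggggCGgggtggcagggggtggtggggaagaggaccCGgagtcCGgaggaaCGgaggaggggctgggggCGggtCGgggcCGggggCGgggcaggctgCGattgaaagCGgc
Grm5: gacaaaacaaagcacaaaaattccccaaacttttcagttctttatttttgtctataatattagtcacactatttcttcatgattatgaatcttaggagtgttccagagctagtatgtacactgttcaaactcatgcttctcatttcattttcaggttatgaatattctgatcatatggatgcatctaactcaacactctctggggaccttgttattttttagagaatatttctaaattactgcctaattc
Grm7: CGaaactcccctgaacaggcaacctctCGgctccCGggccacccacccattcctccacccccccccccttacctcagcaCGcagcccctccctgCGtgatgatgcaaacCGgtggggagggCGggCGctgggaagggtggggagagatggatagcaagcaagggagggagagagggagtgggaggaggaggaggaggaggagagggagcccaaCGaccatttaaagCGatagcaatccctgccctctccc
On either strand the GC box GGGCGG was found 3 times in the Grm2 window, once each in those of Grm3, Grm7 and Grm8, and not in those of Grm4, Grm5 and Grm6; 27.7% of all genes had it in the same window. The cyclic AMP response element TGACGTCA (1.34% of all genes), its core TGACG (15.2%), the Egr1 site GCGTGGGCG (0.464%) and the TATA box TATAAA (15%) were found in none of the 7 windows. The AP-1 site TGANTCA (6.57% of all genes) was found in 1, that of Grm8. The core TGACG is contained in the full element, so a full element counts under both.

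Over the gene body, 1 of the 7 members (Grm2) had at least 2 times the read density of IgG-IP in FC and none in CON, against 33.5% of 23813 genes in FC and 25.5% of 23982 in CON. The call at Grm2 did not hold with 1 read per position and strand, where no member passed in either group, beside 29.4% and 22.3% of all genes. Over input Grm3 passed in its place in FC and none in CON, beside 5.08% and 15.3%. With densities taken relative to windows of like GC content Grm3, Grm5 and Grm7 passed in both groups, beside 14.4% and 13.2%. The median log2 ratio of the members was 0.55 in FC and 0.54 in CON, below that of all genes. The order of the genes from high to low was Grm2, Grm4, Grm3, Grm7, Grm5, Grm6, Grm8 in FC, and Grm3, Grm2, Grm7, Grm4, Grm5, Grm8, Grm6 in CON. In FC the wide interval of Grm2 overlapped those of Grm4, Grm3 and Grm7, and Grm4 overlapped Grm3 and Grm5 overlapped Grm6, whereas in CON Grm2 overlapped Grm3, Grm7 and Grm4, Grm7 overlapped Grm4, and Grm8 overlapped Grm6. Grm8 stood below Grm5 in both groups with intervals that did not overlap.

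**Figure D1:**
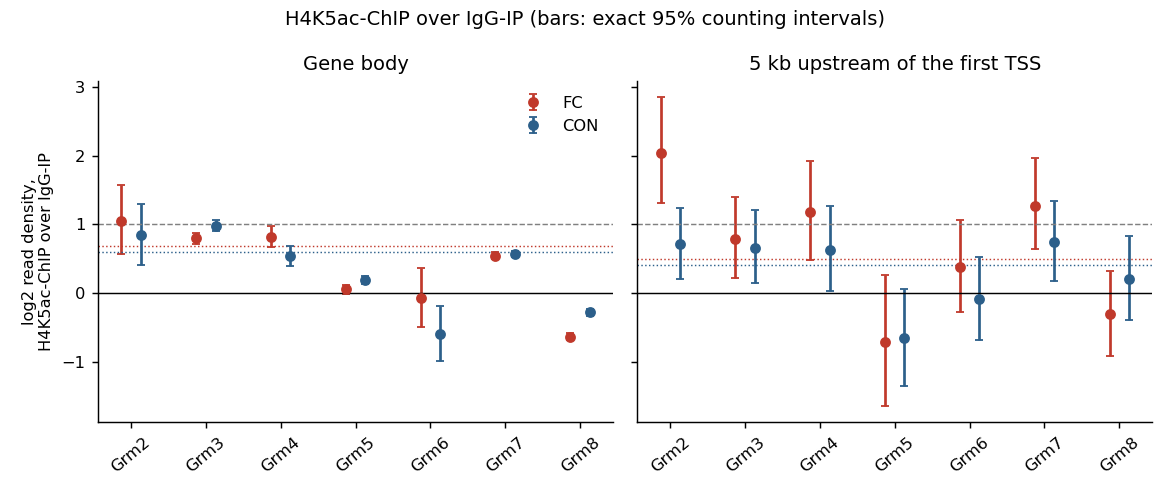
Log2 enrichment, H4K5ac-ChIP density divided by IgG-IP density, for the 7 genes in FC (red) and CON (blue), over the gene body (left) and the 5 kb upstream of the first TSS (right). Points are single libraries, bars exact 95% counting intervals, the dashed line marks 2 times and the dotted lines the median of all genes in each group; Grm2 to Grm4 and Grm7 sit above 0 in both panels, Grm5 and Grm8 near or below it.

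Grm5, the group I receptor, carried H4K5ac-ChIP close to the level of IgG-IP along a body of 532 kb, slightly above it in CON. At its annotated start it carried less than IgG-IP. Gene-body density, in reads per kb scaled to library size as RPKM, was 0.386 in the FC and 0.453 in the CON H4K5ac-ChIP library, 0.372 and 0.396 in IgG-IP, and 0.243 and 0.371 in input. The H4K5ac-ChIP libraries were thus the highest of their group, by little over IgG-IP and by more over input. Log2 enrichment was 0.05 (-0.01, 0.12) in FC and 0.19 (0.14, 0.25) in CON, and over input 0.67 (0.62, 0.72) and 0.29 (0.24, 0.33). The 10 equal parts of the gene ran from 0.314 to 0.515 RPKM in FC and from 0.375 to 0.560 in CON, highest in the 7th part in both. None of its 51 windows of 10 kb with at least 20 reads reached 2 times IgG-IP in either group, where 23.8% of all such windows within genes did in FC and 19% in CON.

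The annotated start of Grm5 was poor in reads of every kind. The 5 kb upstream of the first TSS held 24 reads in the FC and 43 in the CON H4K5ac-ChIP library, 18 and 31 in IgG-IP, and 31 and 57 in input. H4K5ac-ChIP density there was 0.152 RPKM in FC and 0.239 in CON. Autosomal windows of 10 kb at the same GC content had medians of 0.177 and 0.192 RPKM in H4K5ac-ChIP. In IgG-IP their medians were 0.419 and 0.406 RPKM. From -2500 to -500 bases of the TSS, a stretch singled out after its values were seen, the 6 libraries held 4 to 9 reads each. The log2 enrichment within 2 kb of the TSS was -1.12 (-2.0, -0.24) in FC and -0.75 (-1.43, -0.06) in CON, the lowest of any member's first TSS. A second annotated TSS 201 kb downstream, at position 94952325, had ratios of 0.20 (-0.57, 1.03) and 0.18 (-0.57, 0.99). A scan for regions of H4K5ac-ChIP over IgG-IP, in windows of 300 bases at a Poisson p below 1e-05, called 1 region in each group in this gene, and they did not overlap: chr7:95278201-95278550 in FC, which reached into the coding start of the last exon, and chr7:95075751-95076100 in CON, in an intron. Neither was called over input. How many of all called regions overlap between the groups was not counted.

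Grm2, a presynaptic group II autoreceptor, had denser H4K5ac-ChIP in the 5 kb upstream, at 0.962 RPKM in FC and 0.834 in CON, than over its body, at 0.530 and 0.517. The 5 kb upstream held 152 reads in the FC and 150 in the CON H4K5ac-ChIP library, 17 and 42 in IgG-IP, and 168 and 66 in input. In this window the H4K5ac-ChIP libraries were close to each other, while the FC IgG-IP library was low and the FC input high. Log2 enrichment was 2.04 (1.31, 2.86) in FC, percentile 96.8 of all genes, and 0.71 (0.21, 1.24) in CON, percentile 62.4. Divided by the density of windows of the same GC content, H4K5ac-ChIP was 1.13 times in FC and 1.08 times in CON, percentiles 49.8 and 47.1, and on that scale the FC promoter no longer had 2 times IgG-IP. Log2 ratios over input were 0.39 (0.06, 0.71) and 1.17 (0.74, 1.61). Over the 5 kb FC over CON was 0.21 (-0.13, 0.54) in H4K5ac-ChIP, 0.98 (0.57, 1.42) in input and -1.12 (-2.03, -0.28) in IgG-IP. In the 2 kb next to the TSS H4K5ac-ChIP was higher in FC, with 74 reads (1.17 RPKM) against 47 in CON (0.653 RPKM), and IgG-IP held 5 and 9 reads and input 62 and 16. FC over CON there was 0.84 (0.29, 1.40) in H4K5ac-ChIP, 1.59 (0.78, 2.48) in input and -0.67 (-2.59, 1.07) in IgG-IP, so that the difference in H4K5ac-ChIP depended on the length of the window. Over the gene body the H4K5ac-ChIP libraries gave 194 and 215 reads, IgG-IP 43 and 55 reads and input 364 and 167 reads, for a log2 enrichment of 1.05 (0.57, 1.57) in FC and 0.84 (0.41, 1.30) in CON. Against input the FC value was below 0, at -0.38 (-0.64, -0.12).

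The scan called 1 region at Grm2, in FC, at chr9:106559101-106559400. It lay 811 bases upstream of the TSS, outside the annotated body of Grm2, with 19 reads at its summit in H4K5ac-ChIP against 1 in IgG-IP. The fold of 4.38 was over the background of the scan, here the genome-wide mean of the H4K5ac-ChIP library and not local IgG-IP. In the scan reads were moved 75 bases toward the middle of the fragment, and by the deposited read positions the same window held 17 reads in both H4K5ac-ChIP libraries, 1 and 0 in IgG-IP, and 9 and 6 in input, so the window was as full in CON. It was not called over input, nor at a Poisson p below 1e-07. The called window is shown as the only region of a short member, on the strand of the gene with its 5 CpG in capitals.
Grm2 region: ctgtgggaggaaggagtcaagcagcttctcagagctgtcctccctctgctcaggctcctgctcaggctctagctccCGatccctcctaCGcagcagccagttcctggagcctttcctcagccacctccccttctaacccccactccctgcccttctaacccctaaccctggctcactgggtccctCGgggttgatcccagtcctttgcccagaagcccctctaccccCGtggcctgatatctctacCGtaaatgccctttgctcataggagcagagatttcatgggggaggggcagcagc

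Grm3, the group II receptor that glia also express, had the highest H4K5ac of the long members and the clearest shape. Its gene body had 0.702 RPKM in the FC and 0.762 in the CON H4K5ac-ChIP library, 0.404 and 0.387 in IgG-IP, and 0.297 and 0.398 in input. Both H4K5ac-ChIP libraries stood well clear of the 4 control libraries. The log2 ratio was 0.80 (0.71, 0.88) in FC and 0.98 (0.90, 1.06) in CON over IgG-IP, and 1.24 (1.18, 1.31) and 0.94 (0.88, 1.00) over input, with percentiles among all genes of 55.5 and 73.4 over IgG-IP and 98.0 and 81.7 over input. Density was highest in the first of 10 equal parts, at 1.23 RPKM in FC and 1.26 in CON, where the other parts ran from 0.456 to 0.839 and from 0.453 to 0.948. IgG-IP in that first part was 0.478 and 0.354 RPKM. The fifth part was the lowest in both groups. Of 23 windows of 10 kb, 5 reached 2 times IgG-IP in FC and 10 in CON, 4 of them in both, or 21.7% and 43.5% of its windows against 23.8% and 19% of all.

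Regions called over IgG-IP were dense in Grm3. There were 12 in FC and 19 in CON, or 4.90 and 7.75 per 100 kb against 1.5 and 1.78 per 100 kb of genome, and 26.4% of all genes had at least 1 region in FC and 28.2% in CON. Of the 12 FC regions 6 overlapped a CON region (50%), as did 6 of the 19 CON regions an FC region (31.6%). The share of all called regions that overlap between the groups was not counted. Over input 14 regions were called in Grm3 in FC and 22 in CON. Many of these regions had the same fold over both controls, because their background was the genome-wide mean of the H4K5ac-ChIP library. For them the scan over input was no separate check. At a Poisson p below 1e-07 only 4 regions over IgG-IP in FC and 3 in CON were left, where 14.1% of all genes had a region in FC and 12.6% in CON. The higher count in CON did not hold at that cut, but further CON regions of 21 summit reads lay just past it, at 1.14e-07. The regions at p below 1e-05 gathered in intronic sequence near the start, where 6 FC regions lay 10.4 to 25.9 kb and 9 CON regions 1.55 to 22.4 kb downstream of the TSS. A second cluster of 3 and 4 regions lay about 150 kb into the gene. The stretch of the first cluster in FC, chr5:9699451-9715000, held 620 reads in the FC and 696 in the CON H4K5ac-ChIP library, 108 and 81 in IgG-IP, and 199 and 252 in input, with FC over CON at 0.02 (-0.14, 0.18) in H4K5ac-ChIP. That interval held 0. Of the FC regions with the largest fold, 4.84, the first by position had its summit window at chr5:9703751-9704050, in the intron, with 21 reads against 0 in IgG-IP in the scan; it is shown on the strand of the gene, with its single CpG in capitals, since it lies in the densest part of the long member with the highest H4K5ac.
Grm3 region: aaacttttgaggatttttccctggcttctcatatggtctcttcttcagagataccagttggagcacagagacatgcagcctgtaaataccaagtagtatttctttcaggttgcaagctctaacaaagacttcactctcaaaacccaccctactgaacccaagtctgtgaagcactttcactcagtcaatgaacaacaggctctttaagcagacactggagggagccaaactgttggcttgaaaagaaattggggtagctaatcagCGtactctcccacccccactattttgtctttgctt

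The start of Grm3 was above the control libraries in both groups. The 5 kb upstream held 120 and 138 H4K5ac-ChIP reads in FC and CON, 32 and 40 IgG-IP reads, and 86 and 67 input reads. Log2 enrichment was 0.79 (0.21, 1.40) and 0.66 (0.14, 1.21). With a window of 2 kb it was 1.86 and 0.56, on 63 and 58 H4K5ac-ChIP reads against 8 and 18 IgG-IP reads. Relative to windows of the same GC content, the 5 kb upstream had 2.79 times their H4K5ac-ChIP density in FC and 2.76 times in CON, percentiles 96.6 and 96.5 of all genes, the highest of the 7 promoters. Within 2 kb of the first TSS log2 enrichment was 1.29 (0.67, 1.97) and 1.28 (0.69, 1.92). A second annotated TSS, 212 kb downstream, had 0.20 (-0.39, 0.82) and 0.82 (0.22, 1.47).

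Grm4, a group III receptor, had a GC-rich body whose 10 equal parts ran from 0.421 to 0.699 RPKM of H4K5ac-ChIP in FC and from 0.388 to 0.611 in CON. Over the whole body H4K5ac-ChIP gave 0.589 RPKM in FC and 0.506 in CON, IgG-IP 0.335 and 0.347, and input 0.659 and 0.416, so that in FC the input was the highest of the libraries. Log2 enrichment was 0.82 (0.66, 0.97) and 0.54 (0.40, 0.69), and over input -0.16 (-0.25, -0.07) and 0.28 (0.18, 0.39). Of its 9 windows of 10 kb 4 reached 2 times IgG-IP in FC (44.4%) and none in CON, against 23.8% and 19% of all windows within genes. No region was called in either group over IgG-IP or input. The upstream 5 kb held 103 and 101 H4K5ac-ChIP reads, 21 and 30 IgG-IP reads and 142 and 94 input reads, for a log2 enrichment of 1.17 (0.49, 1.93) and 0.63 (0.03, 1.27). In the first 1500 bases downstream of the TSS, singled out after the values were seen, H4K5ac-ChIP held 10 and 7 reads, IgG-IP 0 and 0 and input 11 and 8. The stretch beside its CpG-rich start was thus nearly empty in all 6 libraries. In the 2 kb upstream, a part of the 5 kb, the ratios were 2.31 in FC and 1.40 in CON. They rest on 43 and 46 H4K5ac-ChIP reads against only 4 and 8 IgG-IP reads. The 3 annotated start sites had ratios within 2 kb of 1.51 to 1.73 in FC and 0.91 to 1.33 in CON.

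Grm7, the presynaptic receptor of the active zone and the longest member, had moderate H4K5ac along 922 kb and a narrow rise far from its start. Gene-body density was 0.542 RPKM in the FC and 0.577 in the CON H4K5ac-ChIP library, 0.371 and 0.391 in IgG-IP, and 0.287 and 0.411 in input. Log2 enrichment was 0.55 (0.50, 0.59) and 0.56 (0.52, 0.60), with intervals that overlapped, and over input 0.92 (0.88, 0.95) and 0.49 (0.46, 0.52). The 8th of 10 equal parts was the highest in both groups, at 0.794 RPKM in FC and 0.853 in CON, where the other parts ran from 0.470 to 0.594 and from 0.487 to 0.627. Of 91 windows of 10 kb 6 reached 2 times IgG-IP in FC and 9 in CON, 2 of them in both. That is 6.59% and 9.89% of its windows, below the 23.8% and 19% of all windows within genes.

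The scan called 11 regions in Grm7 in FC and 13 in CON, or 1.19 and 1.40 per 100 kb, below the 1.5 and 1.78 per 100 kb of the genome. At a Poisson p below 1e-07, 5 were left in FC and 0 in CON, so the order of the groups turned at that cut. A CON region of 21 summit reads lay just past it, at 1.14e-07. Of the 11 FC and 13 CON regions at p below 1e-05, 3 and 3 overlapped, 27.3% and 23.1%. Here too the share over all called regions was not counted. In FC 7 of the 11 lay within chr6:111318001-111323150, an intronic stretch of 5.15 kb that begins 722 kb downstream of the TSS, and 4 of the CON regions lay at chr6:111321201-111325650. The FC stretch held 291 reads in the FC and 238 in the CON H4K5ac-ChIP library, 34 and 31 in IgG-IP, and 138 and 110 in input. FC over CON was 0.48 (0.22, 0.73) in H4K5ac-ChIP there, in a stretch bounded by FC regions. In the stretch bounded by CON regions it was 0.09 (-0.20, 0.38). The region of the largest fold in FC had its summit window at chr6:111319301-111319600, with 22 reads against 3 in IgG-IP and a fold of 5.07, and is shown on the strand of the gene, with its CpG in capitals, because it lies in the densest stretch of Grm7.
Grm7 region: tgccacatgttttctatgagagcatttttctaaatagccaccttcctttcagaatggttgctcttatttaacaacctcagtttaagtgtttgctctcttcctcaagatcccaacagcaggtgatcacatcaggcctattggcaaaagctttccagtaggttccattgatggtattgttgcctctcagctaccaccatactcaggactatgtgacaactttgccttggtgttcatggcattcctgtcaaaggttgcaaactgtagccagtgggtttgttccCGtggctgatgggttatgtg

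Near its start Grm7 also stood above IgG-IP. The upstream 5 kb held 126 and 120 H4K5ac-ChIP reads, 24 and 33 IgG-IP reads, and 93 and 69 input reads. The log2 ratio was 1.27 (0.64, 1.97) in FC and 0.74 (0.17, 1.34) in CON over IgG-IP, and 0.97 (0.57, 1.37) and 0.78 (0.34, 1.23) over input. An annotated transcript on the other strand overlaps the first 336 bases of Grm7 and runs through this window, so reads there belong to both genes. A late TSS 850 kb downstream had ratios of -0.14 (-0.80, 0.54) and 0.07 (-0.52, 0.68).

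Grm8, a presynaptic group III receptor, had less H4K5ac-ChIP than IgG-IP over most of its 860 kb. H4K5ac-ChIP gave 0.262 RPKM in FC and 0.328 in CON, IgG-IP 0.406 and 0.398, and input 0.306 and 0.407, so that the H4K5ac-ChIP libraries were the lowest of their group. Log2 enrichment was -0.63 (-0.68, -0.58) in FC and -0.28 (-0.33, -0.23) in CON. Of 85 windows of 10 kb 78 lay below IgG-IP in FC and 69 in CON, 66 of them in both, or 91.8% and 81.2%, against 33% and 32.2% of all windows within genes. Autosomal windows of 10 kb at the GC content of Grm8 had median H4K5ac-ChIP densities of 0.202 (FC) and 0.214 RPKM (CON). Their median IgG-IP densities were 0.399 and 0.394, so at the medians H4K5ac-ChIP was below IgG-IP there too. Density in Grm8 was highest in the first of 10 equal parts, 0.384 and 0.460 RPKM, and lowest in the 8th in FC, at 0.181, and in the 7th in CON, at 0.212. At its start the picture was less low. Within 2 kb of the first TSS the ratio was 0.38 (-0.33, 1.13) and 1.07 (0.15, 2.11), and at a TSS 1.85 kb downstream 0.97 (0.31, 1.70) and 0.76 (0.08, 1.49). The only region called was in CON, at chr6:28082751-28083100, in an exon 228 bases downstream of the nearest annotated start, with 18 reads at its summit against 4 in IgG-IP; it was not called over input. The upstream 5 kb held 65 and 83 H4K5ac-ChIP reads, 37 and 33 IgG-IP reads, and 154 and 70 input reads, for log2 ratios over IgG-IP of -0.31 (-0.91, 0.32) and 0.21 (-0.39, 0.83).

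Grm6, the receptor of retinal ON bipolar cells, had the lowest H4K5ac of the 7 for its base composition. The gene body held 143 reads in the FC and 132 in the CON H4K5ac-ChIP library, 69 and 91 in IgG-IP, and 437 and 254 in input, or 0.291 and 0.236 RPKM of H4K5ac-ChIP against 0.616 and 0.461 of input. H4K5ac-ChIP was the lowest library in both groups. The log2 ratio was -0.07 (-0.49, 0.37) and -0.59 (-0.98, -0.19) over IgG-IP and -1.08 (-1.36, -0.80) and -0.96 (-1.28, -0.65) over input. The upstream 5 kb held 76 and 74 H4K5ac-ChIP reads, 27 and 36 IgG-IP reads and 160 and 78 input reads, for ratios over IgG-IP of 0.37 (-0.28, 1.06) and -0.09 (-0.68, 0.53). No region was called. Of the 6 genes that act with Grm6 in the retina, 5 were found in the annotation by name. Their median gene-body enrichment on the log2 scale was 1.03 for FC and 1.07 for CON, with 3 of 5 at least 2 times IgG-IP in both groups, beside 33.5% (FC) and 25.5% (CON) of all genes.

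Exons, a small share of each long gene, were read apart from the gene body, with wider intervals. Grm2 exons stood at 0.72 (-0.07, 1.59) in FC and 1.90 (0.83, 3.17) in CON on the log2 scale of H4K5ac-ChIP to IgG-IP, Grm3 exons at 0.72 (0.12, 1.35) and 1.10 (0.47, 1.79), and Grm4 exons at 1.10 (0.41, 1.86) and 0.60 (-0.0043, 1.24). Those of Grm5 were at 0.44 (-0.02, 0.91) and 0.41 (0.0014, 0.83), of Grm7 at 0.62 (0.07, 1.21) and 0.73 (0.26, 1.23), of Grm8 at 0.22 (-0.29, 0.75) and -0.02 (-0.43, 0.40), and of Grm6 at 0.34 (-0.42, 1.16) and -0.59 (-1.28, 0.12). The intervals of the exons of Grm8 held 0 in both groups, where its whole body lay below IgG-IP.

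Upstream of the TSS, 3 of the 7 members (Grm2, Grm4 and Grm7) had at least 2 times IgG-IP in FC and none in CON, against 30.4% of 34838 genes in FC and 24.6% of 34986 in CON. The median ratio of the 7 was 0.79 in FC and 0.63 in CON, and of all genes 0.50 and 0.42. H4K5ac-ChIP itself differed at these 3 genes by 0.21 to 0.26 between FC and CON, with intervals that held 0. IgG-IP was lower in FC at all 3, by 1.12 at Grm2, 0.33 at Grm4 and 0.28 at Grm7 on the log2 scale, with an interval that excluded 0 at Grm2 alone. These calls changed with the window, the background, repeated reads and the GC scale. With a window of 2 kb, 4 members in FC and 3 in CON passed, beside 44.5% and 37.5% of all genes. In FC Grm5 held 7 H4K5ac-ChIP and 4 IgG-IP reads there, under the minimum of 20 in both libraries together. Over input the call in FC passed to Grm3 alone and that in CON to Grm2 and Grm3, beside 7.95% and 16.3% of all genes. With 1 read per position and strand Grm7 was lost in FC, and none passed in CON, beside 26.9% and 21.7%. On the GC scale Grm2 and Grm4 were lost, and Grm3 and Grm7 passed in both groups, beside 16.2% and 14.4%.

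**Figure D2:**
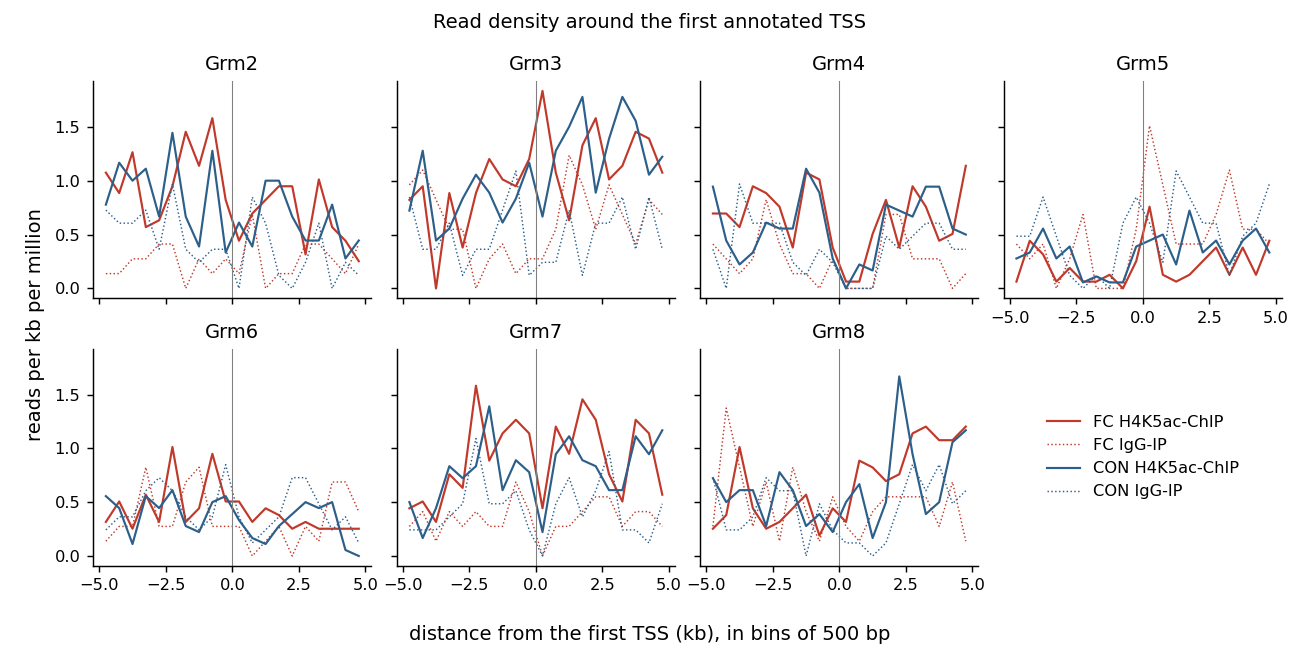
Read density, in RPKM, in bins of 500 bases within 5 kb of the first annotated TSS of each gene, for H4K5ac-ChIP (solid) and IgG-IP (dotted) in FC (red) and CON (blue). H4K5ac-ChIP lies above IgG-IP in most bins around the TSS of Grm2, Grm3 and Grm7 but falls below it in single bins, all libraries dip just after the TSS of Grm4 and before that of Grm5, and no bin holds more than 32 H4K5ac-ChIP reads.

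Each gene was set against the 50 kb on either side of it within the same library, a comparison added after the first values were seen, in which the depth of the library plays no part. H4K5ac-ChIP was denser in the body than in the flanks in the 4 long members in both groups. Body over flanks was computed for the members alone, so how many of all genes share this is not known. The log2 ratio of body over flanks was 0.60 (0.52, 0.69) in FC and 0.47 (0.40, 0.55) in CON for Grm3, 0.64 (0.54, 0.75) and 0.81 (0.71, 0.90) for Grm5, 0.61 (0.52, 0.70) and 0.66 (0.58, 0.74) for Grm7, and 0.47 (0.35, 0.60) and 0.69 (0.58, 0.80) for Grm8. In IgG-IP the same ratio ran from -0.20 to 0.16 in these genes, and in input from -0.20 to 0.17. GC content was close in body and flanks, 37.1% to 38.6% in the 4 bodies and 36.8% to 39.4% in their flanks. Thus Grm5 and Grm8, near or below IgG-IP in absolute density, still stood above their surroundings. In FC the bodies of Grm5 and Grm8 had 0.386 and 0.262 RPKM and their flanks 0.247 and 0.189. Leaving out stretches of the flanks under annotated genes gave 0.70 and 0.75 for Grm3 and 0.71 and 0.71 for Grm7, and no gene was annotated in the flanks of Grm5 and Grm8.

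**Figure D3:**
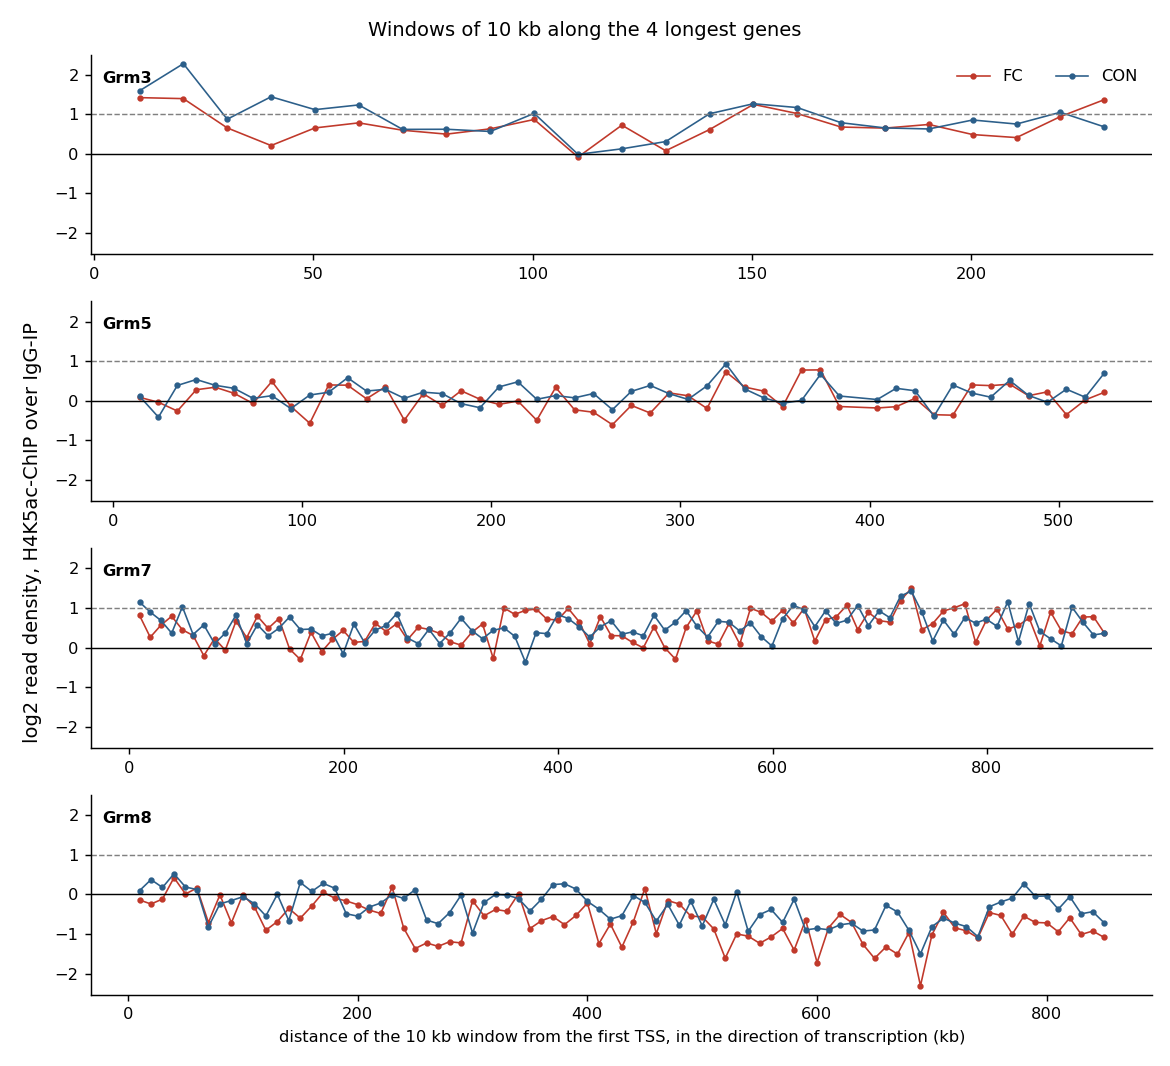
Log2 enrichment in windows of 10 kb along Grm3, Grm5, Grm7 and Grm8, against the distance from the first TSS in kb, in FC (red) and CON (blue); the dashed line marks 2 times. Grm3 is highest near its start, Grm7 peaks about 730 kb downstream, Grm5 runs near 0, and 78 of 85 windows of Grm8 in FC lie below 0.

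In none of the 3 short members was H4K5ac-ChIP denser in the body than in the flanks beyond counting error. Here too no share of all genes was counted. The log2 ratio of body over flanks in H4K5ac-ChIP was -0.47 (-0.69, -0.26) in FC and -0.46 (-0.67, -0.26) in CON for Grm2, 0.03 (-0.07, 0.12) and -0.01 (-0.10, 0.09) for Grm4, and -0.77 (-1.03, -0.53) and -0.97 (-1.24, -0.72) for Grm6. For Grm2 the ratio in IgG-IP was -0.66 and -0.47, and in input 0.12 and -0.23. For Grm6 it was -0.40 and -0.31 in IgG-IP and 0.24 and 0.0055 in input. The bodies were richer in GC than the flanks, at 53.5% against 47.7% for Grm2, 54.5% against 52.5% for Grm4 and 50.2% against 44.5% for Grm6, and the part of this in the ratios was not tested. The flanks of Grm6 hold 5 other protein-coding genes and those of Grm2 3. Without annotated genes in the flanks Grm6 kept ratios of -0.73 (-1.0, -0.46) and -0.86 (-1.14, -0.58), while those of Grm2 came to -0.17 (-0.40, 0.06) and -0.22 (-0.43, -0.0062), the first with an interval that held 0.

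**Figure D4:**
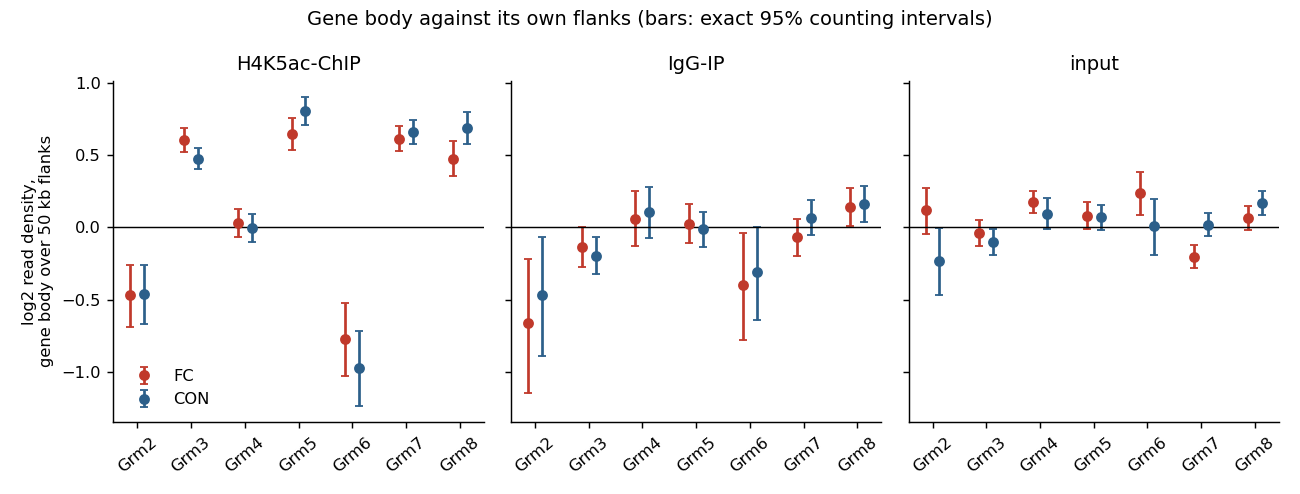
Log2 ratio of read density in the gene body over that in the 50 kb on both sides of it, within each library, in FC (red) and CON (blue), for H4K5ac-ChIP (left), IgG-IP (middle) and input (right); bars are exact 95% counting intervals. In H4K5ac-ChIP Grm3, Grm5, Grm7 and Grm8 lie between 0.47 and 0.81, and Grm2 and Grm6 below 0.

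The same split was seen when each density was divided by the median density of autosomal windows of 10 kb with the same GC content in the same library. This scale takes out what moves with the mean GC content of a gene, whether of the sequencing or of the chromatin. Variation of GC content within a gene is not matched, and its part in these values was not tested. On it the H4K5ac-ChIP gene body of Grm3 was 3.47 times such windows in FC and 3.56 times in CON, percentile 99.2 and 99.3 of all genes. Grm7 was at 2.67 and 2.69 times, Grm5 at 2.03 and 2.26 times and Grm8 at 1.29 and 1.53 times, where the median of all genes was 1.14 in both groups. Grm4 (0.693 and 0.656 times), Grm2 (0.647 and 0.688 times) and Grm6 (0.399 and 0.341 times, percentile 4.26 and 3.61) lay below 1. The order was the same in both groups except between Grm2 and Grm4, whose intervals overlapped. In IgG-IP all 7 gene bodies were between 0.791 and 1.04 times such windows, and in input between 0.904 and 1.06 times. The call of 2 times IgG-IP over gene bodies then passed to Grm3, Grm5 and Grm7 in both groups, beside 14.4% (FC) and 13.2% (CON) of all genes, and Grm2 had a log2 ratio of -0.29 in FC and -0.25 in CON.

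Between FC and CON, no member differed by 1.5 times or more in gene-body H4K5ac-ChIP, in either direction, where 4.53% of 24434 genes were that much higher in FC and 1.96% in CON. The log2 ratio of FC over CON was 0.04 (-0.25, 0.32) for Grm2, -0.12 (-0.17, -0.07) for Grm3, 0.22 (0.12, 0.32) for Grm4, -0.23 (-0.28, -0.18) for Grm5, 0.30 (-0.05, 0.65) for Grm6, -0.09 (-0.12, -0.06) for Grm7 and -0.32 (-0.37, -0.28) for Grm8. The median of all genes was 0.04. Density was lower in FC in 10 of 10 equal parts of Grm5, Grm7 and Grm8, and in 8 of 10 of Grm3; it was higher in FC in 8 of 10 of Grm4 and Grm6. Parts of a gene come from the same library and are no replicates. In Grm8 18 of 85 windows (21.2%) were at least 1.5 times higher in CON and none in FC, where 1.58% of all windows within genes were that much higher in CON and 1.71% in FC. Grm5 and Grm7 had 0 and 1 such windows higher in CON and 1 and 1 higher in FC.

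In input, FC over CON had the sign of that in H4K5ac-ChIP at each gene and was larger in size. The H4K5ac-ChIP intervals of Grm2 and Grm6 held 0, and the share of all genes with this pattern was not counted. FC over CON in input was -0.61 (-0.66, -0.56) for Grm5, -0.52 (-0.56, -0.49) for Grm7, -0.42 (-0.49, -0.35) for Grm3, -0.41 (-0.45, -0.38) for Grm8, 0.42 (0.19, 0.65) for Grm6, 0.66 (0.57, 0.76) for Grm4 and 0.76 (0.49, 1.03) for Grm2. The AT-rich members were thus low in the FC input and the GC-rich members high, and the part of base composition in the H4K5ac-ChIP values of these genes was not tested beyond the division by windows of like GC. On that scale FC over CON was -0.24 for Grm8, -0.15 for Grm5, -0.04 for Grm3, -0.01 for Grm7, 0.08 for Grm4, -0.09 for Grm2 and 0.22 for Grm6. The value of each gene except Grm2 kept its sign and lay nearer to 0, and that of Grm2 changed sign. In IgG-IP, FC over CON ran from -0.22 for Grm6 to 0.07 for Grm3 and was 0.03 (-0.02, 0.09) for Grm8. Because the input ratio was the larger at each gene, taking it away turned the sign at all 7, to -0.72 for Grm2, 0.31 for Grm3, -0.44 for Grm4, 0.38 for Grm5, -0.12 for Grm6, 0.43 for Grm7 and 0.09 for Grm8, and moved the median of all genes to -0.25.

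**Figure D5:**
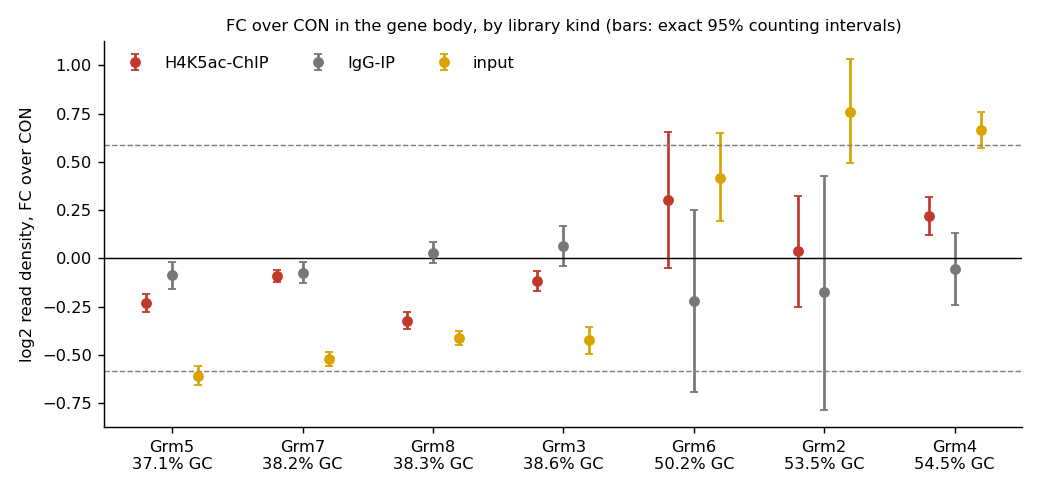
Log2 ratio of gene-body read density, FC over CON, for H4K5ac-ChIP (red), IgG-IP (grey) and input (yellow), with the 7 genes ordered by GC content, which is printed under each name; bars are exact 95% counting intervals and dashed lines mark 1.5 times in either direction. Input runs from below 0 in the 4 AT-rich genes to above 0 in the 3 GC-rich genes, and H4K5ac-ChIP lies between -0.32 and 0.30.

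Upstream of the TSS 1 member passed 1.5 times, Grm5, with a log2 ratio of -0.66 (-1.44, 0.10), where 3.82% of 34347 genes were that much higher in CON and 5.52% in FC. It rests on 24 and 43 reads, its interval held 0, and IgG-IP and input were lower in FC at the same place, by 0.60 and 1.24 on the log2 scale. The other 6 members were between -0.17 and 0.26, each with an interval that held 0. With a window of 2 kb the member past 1.5 times was Grm2, at 0.84, beside 10.3% of all genes that much higher in FC and 7.06% in CON. Grm5 held 7 and 11 H4K5ac-ChIP reads in that window, under the minimum of 20 in both libraries together. None passed with 1 read per position and strand, or on the GC scale. The scan of H4K5ac-ChIP of FC against that of CON called 1 region in the 7 genes, and the scan in the other direction called none, where 2.34% of all genes had a region higher in FC and 1.61% a region higher in CON. The called region lay in an intron of Grm7, at chr6:111431451-111431800, 836 kb downstream of the first TSS and 14.1 kb upstream of the last. It held 22 reads in the FC and 6 in the CON H4K5ac-ChIP library, 1 and 1 in IgG-IP, and 18 and 9 in input, so that the FC input was higher there as well. The scan chose this region for more reads in FC than in CON, so these reads are a description. At a Poisson p below 1e-07 the region was not called, and 0.244% of all genes had one.

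Of 33 genes known to act with these receptors, 12 in FC and 10 in CON had at least 2 times IgG-IP over the gene body, beside 33.5% and 25.5% of all genes, with a median log2 ratio of 0.81 in FC and 0.75 in CON. By role, the median was 1.23 and 1.28 for 5 G protein subunits, 0.59 and 0.60 for 6 effectors, 0.86 and 0.75 for 10 scaffold genes, 1.05 and 1.00 for 6 regulators, and 0.71 and 0.70 for 6 genes of glutamate supply and removal. The highest of the 33 in FC was Elfn2, whose protein binds group III receptors across the synapse, at 2.14, and at 1.52 in CON, where the G protein subunit genes Gnai2 (1.71) and Gnao1 (1.57) were higher. The lowest in both groups was Slc17a6, a vesicular glutamate transporter used mainly outside the hippocampus, at -1.11 and -1.08. For 14 ionotropic glutamate receptor genes the median was 0.72 and 0.61, with 4 and 1 at 2 times or more. None of the 33 or of the 14 differed by 1.5 times between FC and CON over the gene body. Of all genes 4.53% were that much higher in FC and 1.96% in CON. Upstream of the TSS 17 and 18 of the 33 and 5 and 5 of the 14 had at least 2 times IgG-IP in FC and CON, beside 30.4% and 24.6% of all genes.

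Over 6018 protein-coding genes with at least 200 reads in each of the 6 libraries, the genes whose 4 gene-body log2 ratios (H4K5ac-ChIP over IgG-IP and over input, in FC and CON) lay nearest to those of each member were named, with the Euclidean distance as the measure. They were Immp1l (0.0523) and Pkn2 (0.0752) for Grm7, Col18a1 (0.0660) and Cux2 (0.0720) for Grm4, BC016423 (0.0672) and Eaf2 (0.0862) for Grm5, Rasal2 (0.100) and Pcmtd1 (0.114) for Grm3, and Ect2 (0.132) and Ptprc (0.132) for Grm8. Grm2 and Grm6 had under 200 reads in some libraries, and their nearest genes lay farther off, Fam38a (0.287) and Hspg2 (0.296) for Grm2 and Tbx5 (0.20) and 1700101E01Rik (0.203) for Grm6. No member was among the nearest genes named for another.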

How the data were processed

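Chromatin of 6 libraries was sequenced on the SOLiD platform by the study, and the reads were placed on mm9 with Bioscope. Per the labels and the file contents, the deposited files list 1 placed read per line, with its position, strand and a mapping quality score from 4 to 100 that the authors' aligner gave; the score was used only in an alternative (at least 20). Reads overlapping a gene body (TSS to end) or promoter (5 kb upstream) in GENCODE vM1 were counted, with no read removed; 11.5% to 17.8% of reads of a library repeated a position and strand. RPKM is the usual read count per length and library total. Ratios are of read density with exact Clopper-Pearson intervals at 95%, and densities have Poisson intervals; 1 library per group allowed no test of the condition. Genes with at least 20 reads in both libraries together formed the background. The scan was modelled on MACS, which the study used: windows of 300 bases in steps of 50, reads shifted by 75 bases, 1 read per position and strand, local background of 1, 5 and 10 kb, genome size 1.87e+09 and a one-sided Poisson p below 1e-05, which compares 2 libraries. The fold was over the highest of these local backgrounds and the genome-wide mean of the first library. That mean set the folds given for Grm2, Grm3 and Grm7. Counting, intervals and scan were tested on simulated data. Members, lists and measures were chosen with earlier results of these data known. All 7 members were named; lists by counts, medians and extremes; and, per member, the FC region of largest fold and the 2 most alike genes. The comparison with flanks and the stretches near the Grm4 and Grm5 starts were chosen after seeing the data. Alternatives were another read count, background, promoter, GC scale and scan setting. Python 3.11.15, NumPy 2.4.6 and SciPy 1.17.1 were used.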

Additional observations from a re-analysis of the deposited data

Results flagged for a closer look

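In 2 promoters log2 enrichment (H4K5ac-ChIP density divided by that of IgG-IP, with exact 95% bounds) had opposite signs in the 2 groups. At Grm6 it was 0.37 (-0.28, 1.06) in FC and -0.09 (-0.68, 0.53) in CON, and at Grm8 -0.31 (-0.91, 0.32) in FC and 0.21 (-0.39, 0.83) in CON. The difference between the groups was not tested, since each group had 1 library of each kind; all 4 intervals held 0 and those of the 2 groups overlapped at both genes.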

How the results depend on the processing

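No paired analysis was possible because each group had 1 library of each kind, and for the same reason no replicate could be left out. Counts that moved by more than 1.5 times were these. Gene bodies at 2 times IgG-IP in FC numbered 0 with 1 read per position and strand and 3 on the GC scale; in CON 3 on the GC scale. Promoters at 2 times IgG-IP numbered 1 in FC over input; in CON 2 over input, 3 with 2 kb and 2 on the GC scale. Members past 1.5 times between FC and CON numbered 1 (Grm2) for gene bodies less the input ratio. For promoters they numbered 0 with 1 read per position, 0 on the GC scale and 3 (Grm2, Grm5, Grm8) less input. With 2 kb or less IgG-IP the 1 promoter was that of Grm2, not Grm5. With 2 kb the promoter of Grm5 was under the minimum of 20 reads. Less input or less IgG-IP, the share of all genes past 1.5 times was not counted, so those counts have no background. Members with a region over IgG-IP numbered 4 in each group at a Poisson p below 1e-05, beside 26.4% (FC) and 28.2% (CON) of all genes. At p below 1e-07 they numbered 2 in FC and 1 in CON, beside 14.1% and 12.6%. Over input they numbered 2 and 2, and the share of all genes was not counted. Among values past a threshold, those that changed sign were Grm2 gene body in FC, -0.38 over input and -0.29 on the GC scale, Grm4 promoter in FC, -0.22 on the GC scale, and Grm5 promoter FC over CON, 0.59 less input. Values under the thresholds changed sign as well, among them FC over CON of all 7 gene bodies less input. Of the other values of single members 69 moved beyond their counting interval and 207 did not. The cause of these changes was not tested. Less IgG-IP, the median of all promoters became 0.11, and less input -0.17. IgG-IP reads numbered 17 to 42 at each promoter, which widens the intervals of the promoter ratios.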
